A study of Mus musculus with 12 samples.

Results

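The 10 genes described here belong to a group of imprinted genes that are expressed together in many embryonic tissues: H19, Meg3, Rian, Mirg, Dlk1, Cdkn1c, Peg3, Mest, Plagl1 and Grb10. They were taken by name, with earlier results of these data known. The same holds for the lists of further genes below, so shares called among either are a description. All 10 were found among the 25915 genes to which the deposited transcripts could be matched, and 5 of them passed a filter on low values that 13137 genes passed. The data were 12 poly(A)-selected RNA-seq libraries of C2C12, an established line of mouse myoblasts that withdraw from the cell cycle and form myocytes when serum is reduced. Cells had been given a non-targeting control siRNA (siControl) or 1 siRNA against Kctd10 (siKctd10), a BTB-domain protein through which CUL3 ubiquitin ligases find substrates, and 3 libraries were made for each of 4 groups.

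The D0 groups, labelled undifferentiated myoblasts, were kept subconfluent in medium with 10% fetal bovine serum and harvested 48 h after either siRNA. The D2 groups, labelled differentiating myocytes, received either siRNA, were moved 24 h later to medium with 2% horse serum and were harvested 48 h after that move. Cell density, serum and time since the siRNA therefore change together between D0 and D2 and cannot be told apart. All 4 groups share the line and a transfected siRNA. The labels name a triplicate but no separate cultures, so p-values measure the spread between these libraries, which may be technical.

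Genomic imprinting is the expression of a gene from only the maternal or only the paternal copy, set by DNA methylation that was laid down in the egg or sperm. Most imprinted genes lie in clusters that share a control region, and several of them act on growth, in part through insulin-like growth factor 2. In muscle, H19 and its neighbour Igf2 are known to be switched on as myoblasts differentiate, and Cdkn1c is known as a brake on the cell cycle. The libraries measure total RNA of a gene and do not separate the parental copies.

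The siRNA against Kctd10 is shown because a guide can also act through its seed, the stretch from base 2 to base 8, on transcripts other than its target. Its guide strand, the reverse complement of the sense strand given in the design, has the seed in capitals.
siKctd10 guide: uUAUCGUCagaauugcugg
The complement of this seed, GACGATA, was absent from the longest annotated transcript of each of the 10 genes and of Igf2. It was present in 434 of 13137 longest transcripts of the genes tested, or 3.3%, and once in Kctd10 itself. Absence of these letters says only that they are not in those transcripts.

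Libraries held 12510000 to 18080000 estimated read pairs. Values are TPM, an abundance that is scaled by transcript length and sums to the same total in every library. Kctd10 fell from 266 ± 7.32 to 23.1 ± 2.69 TPM at D0 and from 283 ± 6.77 to 32.0 ± 4.58 TPM at D2 (mean ± SD, n = 3), so each library matched its label. All 9 markers of skeletal myoblasts and myocytes rose from D0 to D2 with either siRNA. Of all genes, 21.3% rose in siControl and 23.0% in siKctd10 by the test named below. Ckm, at most 0.584 TPM at D0, passed the filter only through D2 libraries, so its rise was fixed in part by the filter. The summed level of the 9 markers was 620 to 658 TPM at D0 siControl and 4727 to 4934 TPM at D2 siControl. Of 22 markers of adipocytes, osteoblasts, leukocytes, endothelial cells and neural cells, 7 were listed at 0 in all 12 libraries (Adipoq, Plin1, Ptprc, Adgre1, Kdr, Gfap and Bglap). Others were expressed, with group means of 40.3 to 55.6 TPM for the osteoblast marker Runx2, 4.99 to 17.4 TPM for Pparg, 11.9 to 25.2 TPM for Cebpa, 12.7 to 38.9 TPM for Lpl and 4.47 to 30.9 TPM for the neural marker Map2. Differences were tested with limma on log2(TPM + 1) with Benjamini-Hochberg adjustment over the 13137 genes, and a gene was called at an adjusted p under 0.05. A log2 difference on this scale understates the change of low genes.

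From D0 to D2, 4 of the 10 genes rose with either siRNA: H19, Cdkn1c, Peg3 and Mest. The imprinted domain of Dlk1, Meg3, Rian and Mirg was at or near 0 throughout, and Plagl1 and Grb10 stayed low. Between the siRNAs, H19 was the 1 gene called of the 5 tested, and it was higher in siKctd10 at D0 and lower at D2. For differentiation in siControl, 4 of the 5 genes tested were called, all higher, and the groups of 5 of 5 did not overlap. The uncalled gene, Plagl1, was lower at D2 and passed the filter only through D0 libraries. Its separation was therefore fixed in part by the filter. Over all 13137 genes 35.3% were called, 21.3% higher and 14.0% lower, and the groups of 52.2% did not overlap. In siKctd10 the calls were again 4 of 5, all higher, and the groups of 4 of 5 did not overlap, against 36.2% of all genes called, 23.0% higher and 13.2% lower, and 48.3% without overlap.

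For siKctd10 against siControl at D0, 1 of 5 was called, higher, and the groups of 1 of 5 did not overlap, against 2.45% of all genes called, 1.48% higher and 0.974% lower, and 23.2% without overlap. At D2, 1 of 5 was called, lower, and the groups of 3 of 5 did not overlap, against 4.71% of all genes called, 2.81% higher and 1.90% lower, and 28.3% without overlap. H19, Cdkn1c, Peg3 and Mest were at 1 TPM or more in all 12 libraries, so none of them entered the test through its high group alone.

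**Figure D1:**
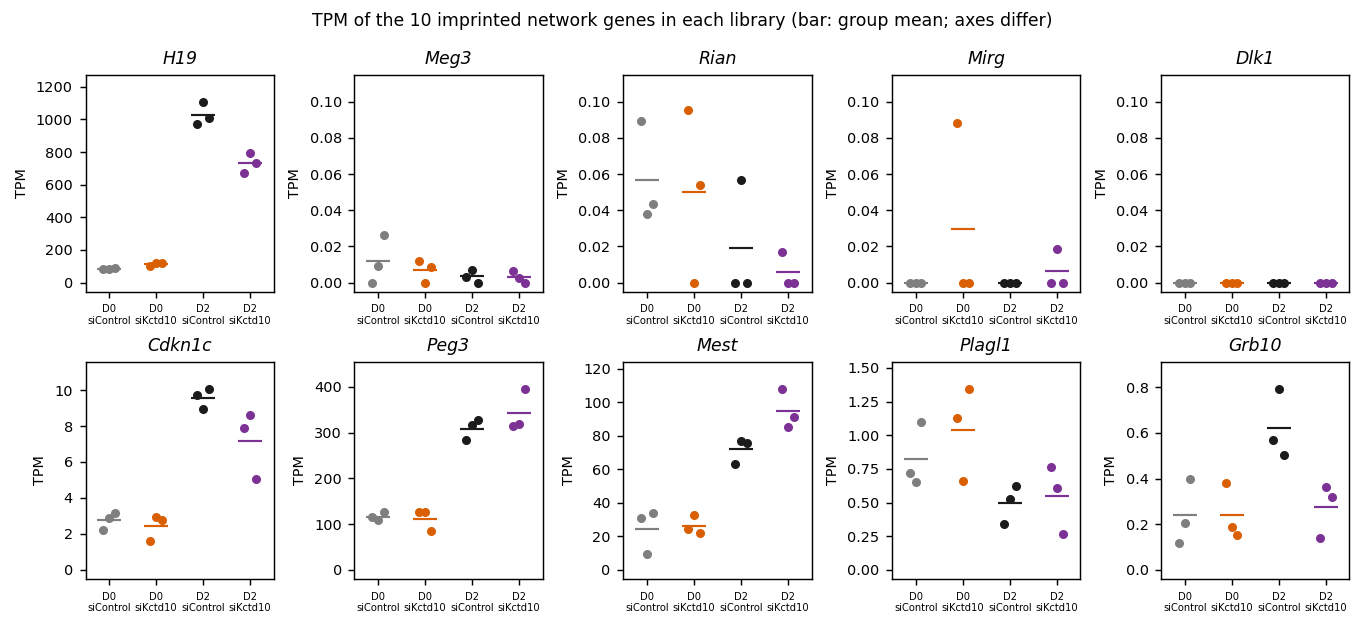
TPM of each of the 10 genes (vertical axes, linear and different for each gene) in the 3 libraries of each group, with points for libraries and bars for group means. H19, Cdkn1c, Peg3 and Mest are higher in every D2 library than in any D0 library, while Meg3, Rian, Mirg and Dlk1 stay under 0.1 TPM.

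H19 is a long non-coding RNA expressed from the maternal chromosome, and it is also the precursor of a microRNA. The gene (ENSMUSG00000000031.16) lies on the minus strand at chr7:142575529-142578143 (mm10), and its TPM sat in 1 spliced transcript of 5 exons and 2288 bases. The microRNA hairpin lies in exon 1 at chr7:142577064-142577147. Its mature arms are shown because cleavage of this hairpin would release them. They are taken from RefSeq (GRCm38.p6), with the seed (bases 2 to 8) in capitals.
miR-675-5p: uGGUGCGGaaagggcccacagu
miR-675-3p: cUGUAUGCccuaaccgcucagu
The arms have different seeds. Poly(A)-selected libraries do not measure mature microRNAs, so the values below are those of the long RNA.

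In the D0 siControl libraries H19 stood at 82.5, 82.6 and 86.9 TPM. In the D0 siKctd10 libraries it stood at 104, 120 and 120 TPM. Every D0 siKctd10 library was above every D0 siControl library. The D2 siControl libraries held 972, 1109 and 1008 TPM, the highest levels of any of the 10 genes. The D2 siKctd10 libraries held 670, 793 and 733 TPM. The 4 groups did not overlap, and their order from low to high was D0 siControl, D0 siKctd10, D2 siKctd10 and D2 siControl.

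H19 rose 12.3-fold during differentiation in siControl, by 3.60 ± 0.09 on the log2 scale (fitted value ± SE here and below, limma adjusted p = 1.2e-08). In siKctd10 it rose 6.38-fold, by 2.66 ± 0.09 (limma adjusted p = 5.8e-08). The difference between these rises, the interaction of day and siRNA, was -0.94 ± 0.12 (limma adjusted p = 0.0098). Of all genes, 0.738% were called for the interaction, 0.373% above 0 and 0.365% below, and H19 was the 1 call among the 5 genes tested. The interaction kept its direction and its call under all 23 alternatives, with adjusted p from 0.0061 to 0.035.

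Split by day, H19 was 1.37-fold higher in siKctd10 at D0, by 0.44 ± 0.09 on the log2 scale (limma adjusted p = 0.031). At D2 the siKctd10 mean was 0.711 times the siControl mean, a log2 difference of -0.49 ± 0.09 (limma adjusted p = 0.013). The call at D0 was lost in 8 of 24 alternatives (adjusted p up to 0.14), among them a fit with only the 2 groups compared (0.14), read-pair weighting with voom (0.096) and leaving out any D0 siControl library (0.071 to 0.11), D0 siKctd10 library 2 (0.10) or 3 (0.085), or D2 siControl library 3 (0.052). The call at D2 was lost with only the 2 groups compared (0.067) and without D2 siControl library 2 (0.053). All of these kept the direction.

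Beside the lower H19 at D2, several muscle markers were lower too. The summed level of the 9 muscle markers was 3091 to 3670 TPM in D2 siKctd10 against 4727 to 4934 TPM in D2 siControl. Of the 9, 4 were called, all lower (44.4%, against 4.71% of all genes called and 1.90% lower). Those 4 were Myod1, Myf5 and Myog, myogenic transcription factors, and Mymk, which encodes a fusion protein. The largest falls in mean TPM were those of Acta1 (1376 to 909) and Mylpf (1170 to 649), neither called. Ckm was not called either, and Des and Cdh15 overlapped between the D2 groups. The summed level of 5 adipocyte markers was 62.7 to 74.2 TPM in D2 siKctd10 against 27.9 to 37.3 TPM in D2 siControl, with Cebpa called higher and Adipoq and Plin1 listed at 0. That of 4 neural markers was 14.4 to 21.3 TPM against 23.2 to 35.6 TPM, with Gfap listed at 0. Nearly all of that neural sum was Map2, while Syp went the other way, at a mean of 0.58 TPM against 0.0558 TPM. No muscle marker was called lower at D0, and Acta1, skeletal muscle actin, was called higher there (0.94 ± 0.16, limma adjusted p = 0.017). Acta1 was at -0.59 ± 0.16 at D2 (limma adjusted p = 0.065), and its interaction of -1.53 ± 0.22 was called (limma adjusted p = 0.016) and exceeded that of H19 in size. Fewer differentiating cells and less RNA per cell cannot be told apart in bulk libraries, and the part of these marker changes in the H19 result was not tested.

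**Figure D2:**
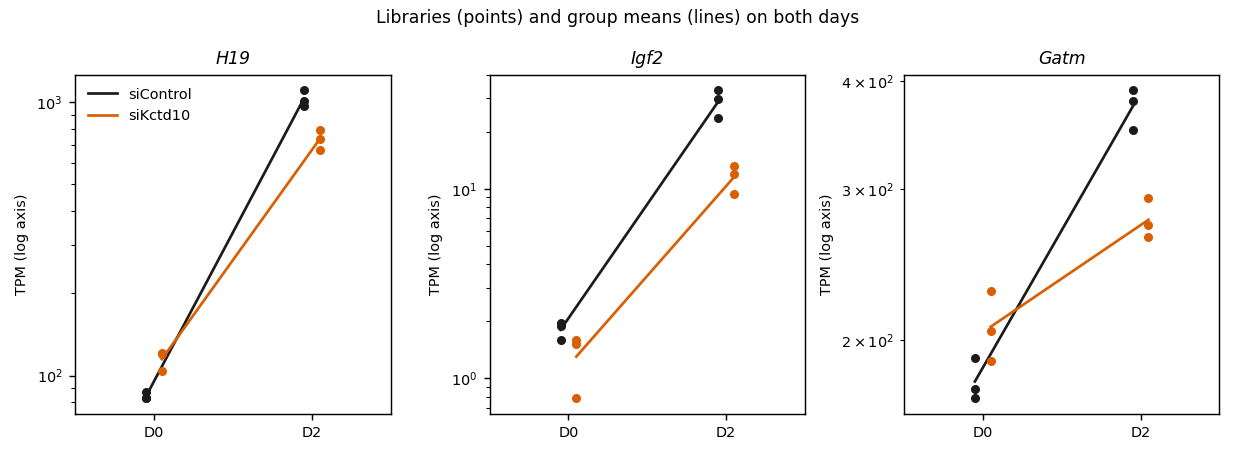
TPM (log axes, a different range for each gene) of H19, Igf2 and Gatm in each library at D0 and D2, with points for the 3 libraries of a group and lines joining group means. The siKctd10 line starts above and ends below the siControl line for H19 and Gatm, and ends below it for Igf2.

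The genes whose log2(TPM + 1) followed H19 most closely over the 12 libraries were Pmaip1 (Pearson r = 0.998), Ext1, Ckm and Lama2 (each 0.996) and Serinc5 (0.995), out of 10351 genes ranked. Ckm, the muscle creatine kinase, and Lama2, a laminin chain of the muscle basement membrane, are textbook genes of muscle. Pmaip1, the closest, and Ext1 and Serinc5 are not counted as such. Ckm was listed at 0 in all D0 siControl libraries. The r values describe libraries that share the large D0 to D2 step, and the 12 libraries are 4 groups of 3.

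Cdkn1c encodes p57, an inhibitor of cyclin-dependent kinases that is expressed from the maternal copy. It lies at chr7:143458339-143461050 on the minus strand, in the neighbouring domain of the same chromosome, and 1 of its 3 transcripts held all of its TPM. In D0 siControl it stood at 2.21, 2.88 and 3.18 TPM and in D2 siControl at 9.71, 8.93 and 10.1 TPM. In D0 siKctd10 it stood at 1.59, 2.97 and 2.76 TPM and in D2 siKctd10 at 7.89, 8.64 and 5.06 TPM. Each D2 library was above each D0 library.

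Cdkn1c rose 3.47-fold during differentiation in siControl, by 1.50 ± 0.22 (limma adjusted p = 0.00044). In siKctd10 the rise was 2.95-fold, 1.25 ± 0.22 (limma adjusted p = 0.0014). The D2 siKctd10 libraries all lay below the D2 siControl libraries, but the difference of -0.39 ± 0.22 was not called (limma adjusted p = 0.37). At D0 the siRNA groups overlapped, with a difference of -0.14 ± 0.22. Among the closest patterns over the 12 libraries were those of Pde8a (r = 0.970), Arl6ip5 (0.968) and Mknk2 and Cdk5r1 (each 0.967).

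Peg3 encodes a zinc finger protein and is expressed from the paternal copy. It lies at chr7:6703892-6730431 on the minus strand, and 1 of its 2 transcripts held all of its TPM. It was the most abundant protein-coding gene of the 10, at 115, 108 and 127 TPM in D0 siControl and 283, 316 and 328 TPM in D2 siControl. In D0 siKctd10 it stood at 125, 126 and 84.0 TPM and in D2 siKctd10 at 314, 318 and 395 TPM. The D0 and D2 groups did not overlap, and the siRNA groups overlapped on both days.

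Peg3 rose 2.65-fold in siControl, by 1.40 ± 0.16 (limma adjusted p = 8.9e-05). In siKctd10 it rose 3.06-fold, by 1.62 ± 0.16 (limma adjusted p = 3.6e-05). Between the siRNAs it differed by -0.08 ± 0.16 at D0 and 0.14 ± 0.16 at D2, neither called. An unnamed transcript on the opposite strand shares 865 exon bases with Peg3. The deposited command line names no strand option, so reads of overlapping genes on opposite strands cannot be told apart.

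Mest encodes a protein of the alpha/beta hydrolase family and is expressed from the paternal copy. It lies at chr6:30723547-30748465 on the plus strand, and a microRNA hairpin lies in intron 3 at chr6:30741299-30741396. Its arms are shown, with seeds in capitals, because they come from the same primary transcript (RefSeq, GRCm38.p6).
miR-335-5p: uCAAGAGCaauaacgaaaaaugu
miR-335-3p: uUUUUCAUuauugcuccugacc
Neither seed is that of a miR-675 arm.

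Mest stood at 30.8, 9.33 and 33.7 TPM in D0 siControl and at 63.3, 76.8 and 75.9 TPM in D2 siControl. It stood at 24.4, 32.8 and 21.9 TPM in D0 siKctd10 and at 108, 85.5 and 91.4 TPM in D2 siKctd10. D0 siControl library 2 was far below the others, and the D0 and D2 groups did not overlap. The D2 siKctd10 libraries all lay above the D2 siControl libraries.

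Mest rose 2.92-fold in siControl, by 1.69 ± 0.39 (limma adjusted p = 0.0077). Without D0 siControl library 2 that value was 1.13 (limma adjusted p = 0.0016). In siKctd10 it rose 3.60-fold, by 1.82 ± 0.39 (limma adjusted p = 0.0052). The siRNA groups differed by 0.39 ± 0.39 at D2 (limma adjusted p = 0.64) and by 0.26 ± 0.39 at D0 (0.80), and the D0 difference turned to -0.30 without D0 siControl library 2. Mest shares 913 exon bases with Copg2 on the opposite strand, and Copg2 rose as well, by 0.84 ± 0.16 in siControl and 0.77 ± 0.16 in siKctd10. The closest patterns were those of Klhl28 (r = 0.965), C1qtnf6 and Ctdsp2 (each 0.953), and B4galt1 and Popdc3 (each 0.952).

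**Figure D3:**
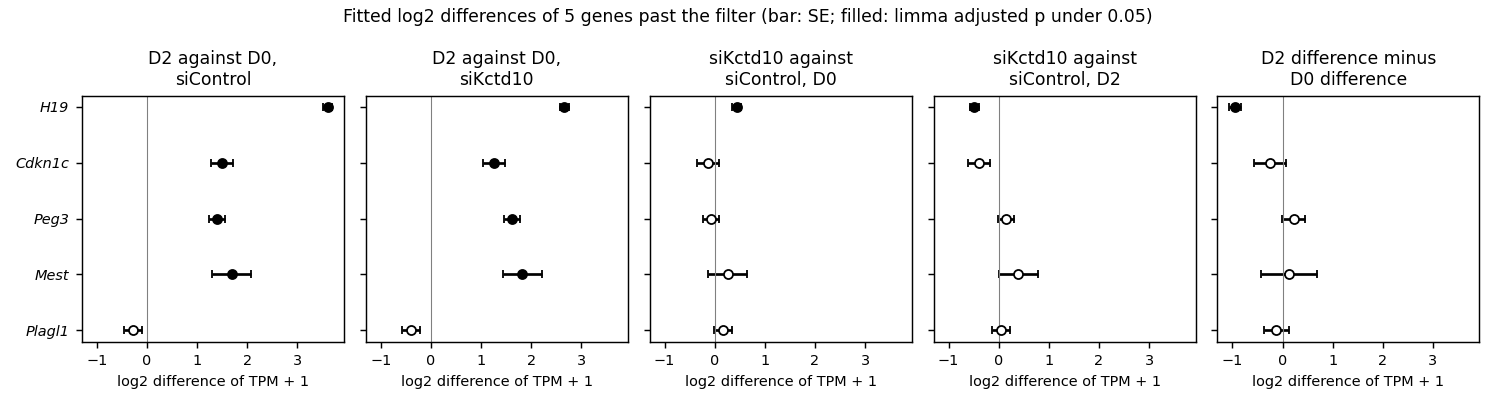
Fitted log2 differences of TPM + 1 (horizontal axis) for the 5 genes past the filter in 5 comparisons, with bars for the SE and filled points for a limma adjusted p under 0.05. H19, Cdkn1c, Peg3 and Mest lie right of 0 in both differentiation panels, and only H19 has filled points in the siRNA panels.

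Plagl1, a zinc finger transcription factor placed at the centre of the network in the literature, was low. It stood at 0.716, 0.653 and 1.1 TPM in D0 siControl and 1.13, 0.656 and 1.34 TPM in D0 siKctd10. At D2 it stood at 0.339, 0.525 and 0.621 TPM in siControl and 0.763, 0.606 and 0.269 TPM in siKctd10. It was not called in any comparison by the test used here. Plagl1 passed the filter only through D0 libraries, so its lower level at D2 was fixed in part by the filter. With quantile normalization it was called lower at D2 in siControl (-0.58, limma adjusted p = 0.033) and in siKctd10 (-0.72, limma adjusted p = 0.012), and without D0 siKctd10 library 2 it was called in siKctd10 (-0.54, limma adjusted p = 0.049). Its main log2 difference was -0.28 ± 0.18 for differentiation in siControl and -0.40 ± 0.18 in siKctd10, where 1 D2 library overlapped the D0 range. Its estimated read pairs numbered 8 to 42 a library.

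Grb10, an adaptor that dampens insulin and IGF receptor signals, did not pass the filter. In siControl it stood at 0.119, 0.205 and 0.399 TPM at D0 and at 0.569, 0.792 and 0.503 TPM at D2. In siKctd10 it stood at 0.381, 0.188 and 0.152 TPM at D0 and at 0.139, 0.365 and 0.320 TPM at D2. The D2 siControl libraries were above all 9 others, and with 4 to 20 estimated read pairs a library no test was made.

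Meg3, Rian and Mirg are non-coding RNAs expressed from the maternal copy of the Dlk1-Dio3 domain, and Dlk1 is its paternally expressed protein-coding gene, a transmembrane relative of the Notch ligands. Meg3 lies at chr12:109541001-109571726. It was above 0 in 8 of 12 libraries, with a highest value of 0.026 TPM and 4 estimated read pairs over all 12. Rian was above 0 in 7 libraries, up to 0.095 TPM and 8 read pairs in all. Mirg was above 0 in 2 libraries, up to 0.088 TPM and 2 read pairs in all.

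Dlk1 was listed at 0 in every library for all 5 of its transcripts. Of the other genes of the domain, Dio3 was listed at 0 throughout and Rtl1 was above 0 in all 12 libraries, with group means of 0.071 to 0.174 TPM. The files do not tell a failed estimate from a gene with no reads where a value is exactly 0. No difference between groups was detectable for these 4 genes at this depth.

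A list of 22 further imprinted genes of the same domains was examined, and 12 passed the filter. In siControl, 8 of the 12 rose from D0 to D2 and none fell, with a median log2 difference of 1.24 against 0.09 over all genes tested, and 66.7% were called against 35.3% of all genes. In siKctd10, 7 rose and none fell, with a median of 0.77 against 0.12, and 58.3% were called against 36.2%. Ins2, listed at 0 in all D0 libraries, and Ddc, at most 0.334 TPM there, passed the filter only through D2 libraries. Their rise was therefore fixed in part by the filter, and these counts and medians are a description. At D0 no gene of the 12 was called for the siRNA, against 2.45% of all genes. At D2 there were 3 calls, all lower in siKctd10 (25%, against 4.71% of all genes called and 1.90% lower): Igf2, Tspan32 and Ddc. The marker changes at D2 given beside H19 accompany these calls too, and their part was not tested.

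Igf2, the fetal growth factor whose enhancers are shared with H19, stood at 1.88, 1.58 and 1.95 TPM in D0 siControl and 1.60, 0.784 and 1.52 TPM in D0 siKctd10. At D2 it stood at 23.6, 29.7 and 33.2 TPM in siControl and 9.39, 13.2 and 11.9 TPM in siKctd10. The D2 groups did not overlap. Igf2 rose 16.0-fold in siControl, by 3.40 ± 0.19 (limma adjusted p = 8.3e-07), and 8.85-fold in siKctd10, by 2.45 ± 0.19 (limma adjusted p = 8.2e-06). At D2 the siKctd10 mean was 0.40 times that of siControl, a log2 difference of -1.25 ± 0.19 (limma adjusted p = 0.0068), called in all 24 alternatives. The interaction of -0.95 ± 0.27 was close to that of H19 in size but was not called (limma adjusted p = 0.21).

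Tspan32, a tetraspanin gene of the Cdkn1c domain, rose from 3.33 ± 0.62 to 52.9 ± 9.68 TPM in siControl and from 2.72 ± 0.326 to 30.5 ± 1.16 TPM in siKctd10 (mean ± SD, n = 3). It was lower in siKctd10 at D2 by a log2 difference of -0.76 ± 0.16 (limma adjusted p = 0.028). That call was lost with only the 2 groups compared and without D2 siControl library 1 or 3 or any D2 siKctd10 library (adjusted p up to 0.10). Ddc, which encodes aromatic L-amino acid decarboxylase and lies next to Grb10, was near 0 at D0 and stood at 3.99 ± 0.559 TPM in D2 siControl against 1.46 ± 0.586 TPM in D2 siKctd10. Its D2 difference was -1.04 ± 0.20 (limma adjusted p = 0.018), lost without D2 siControl library 1 or 2, with voom, with only the 2 groups compared and with a pseudocount of 0.1 (adjusted p up to 0.26). Cobl, an actin nucleator on the other side of Grb10, rose 5.07-fold in siControl and 2.29-fold in siKctd10, and its siRNA difference at D2 of -0.63 ± 0.22 was not called.

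Of 12 other genes of the published network, 10 passed the filter, and Igf2 is counted here again. In siControl, 6 rose and 2 fell from D0 to D2 (80% called against 35.3% of all genes), with a median of 0.64 against 0.09. In siKctd10, 5 rose and 2 fell (70% against 36.2%), with a median of 0.30 against 0.12. Asb4, at a mean of 0.425 TPM in D0 siControl and listed at 0 in D2 siControl, was removed by the filter, and Slc38a4 passed it only through D0 libraries. Dcn, which encodes the matrix proteoglycan decorin, rose 38.8-fold in siControl, from 14.6 ± 2.18 to 566 ± 15.9 TPM. Peg10, derived from a retrotransposon, fell from 217 ± 13.5 to 78.7 ± 21.9 TPM, and the amino acid transporter gene Slc38a4 fell from 2.42 ± 0.324 to 0.561 ± 0.211 TPM.

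At D2, 3 of the 10 were called, all lower in siKctd10 (30%, against 4.71% of all genes called and 1.90% lower). They were Igf2, already counted in the list before, Dcn and Gatm, beside the same marker changes, whose part was not tested. Dcn stood at 561, 584 and 553 TPM in siControl and 387, 342 and 330 TPM in siKctd10, a log2 difference of -0.68 ± 0.11 (limma adjusted p = 0.0074) that was called in all 24 alternatives. Gatm, which encodes the first enzyme of creatine synthesis, stood at 351, 379 and 391 TPM in siControl and 293, 264 and 272 TPM in siKctd10, a difference of -0.44 ± 0.08 (limma adjusted p = 0.018). That call was lost with only the 2 groups compared and without D2 siControl library 2 or 3 or D2 siKctd10 library 2 or 3 (adjusted p up to 0.068). At D0, 1 of the 10 was called (10%, against 2.45% of all genes). It was Igf2r, the receptor that clears IGF2, at 10.6 ± 0.647 TPM in siControl and 17.8 ± 1.67 TPM in siKctd10 (0.70 ± 0.13, limma adjusted p = 0.022). Its call was lost with only the 2 groups compared and without any D0 siControl library or D0 siKctd10 library 2 (adjusted p up to 0.11).

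**Figure D4:**
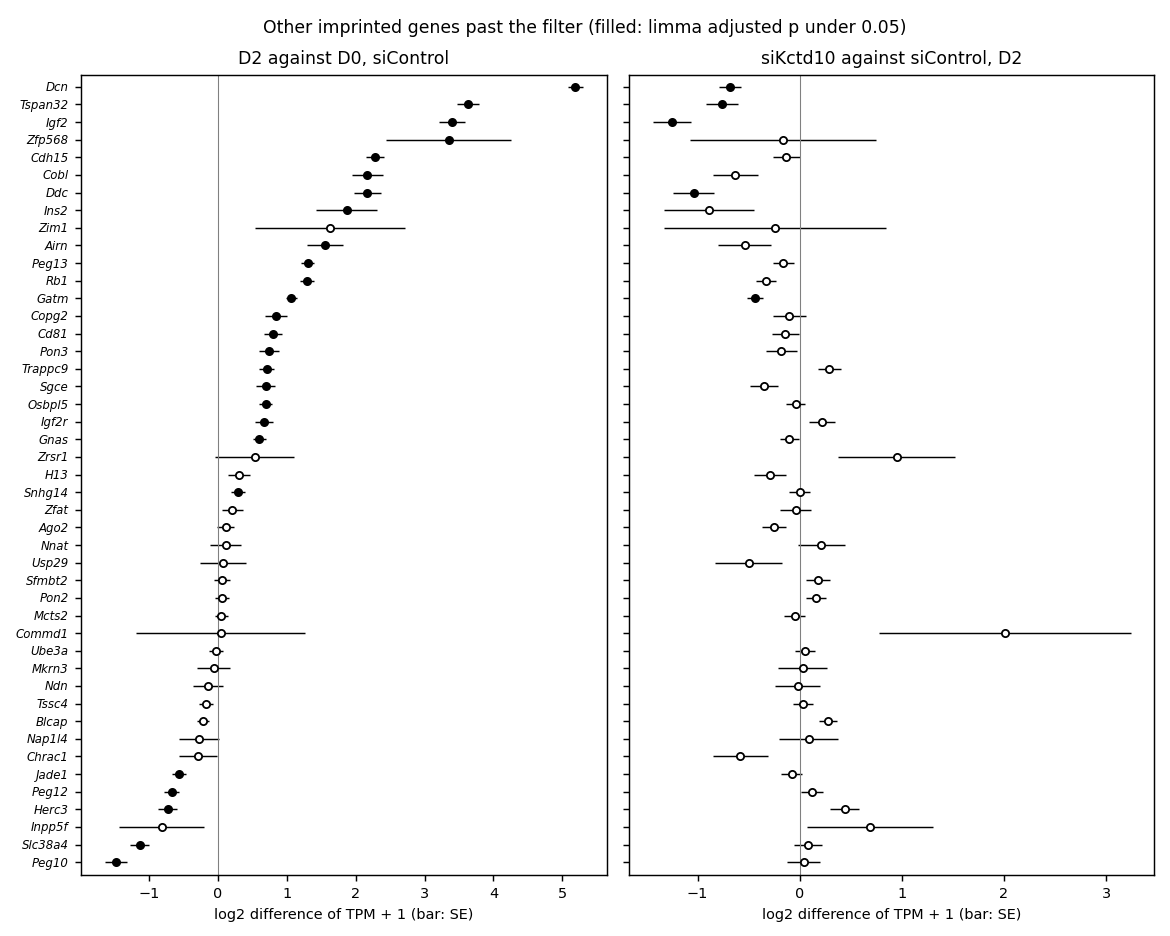
Fitted log2 differences of TPM + 1 (horizontal axes) of 45 other imprinted genes past the filter, ordered by their difference in differentiation, with bars for the SE and filled points for a limma adjusted p under 0.05. The left panel is D2 against D0 in siControl and the right panel siKctd10 against siControl at D2, which share the D2 siControl libraries. Filled points in the right panel are Dcn, Tspan32, Igf2, Ddc and Gatm, all left of 0.

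A list of 36 symbols of other mouse imprinted genes included some imprinted only in certain tissues or reported as imprinted in other species. Its Eif2c2 and Ago2 name the same gene, so 35 genes were found, and 24 passed the filter. In siControl 8 rose and 3 fell (45.8% called against 35.3% of all genes), with a median of 0.09, the same as over all genes. In siKctd10 6 rose and 3 fell (37.5% against 36.2%). None was called between the siRNAs on either day, against 2.45% of all genes at D0 and 4.71% at D2. Peg13, a non-coding RNA, rose from 18.4 ± 0.946 to 46.8 ± 3.00 TPM in siControl, and Airn, the non-coding RNA transcribed antisense to Igf2r, rose from 0.901 ± 0.611 to 4.42 ± 0.777 TPM.

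Genes for factors that maintain imprints were examined as a further list of 18, of which 17 passed the filter. In siControl 2 rose and 5 fell from D0 to D2 (41.2% called against 35.3% of all genes), and in siKctd10 1 rose and 5 fell (35.3% against 36.2%). The shares called were near those of all genes and are not read as a result about the list. Calls in siControl were lost for Dnmt3a, a rise, in 8 of 23 alternatives, and for Eed (4 of 24) and Dnmt3b (1 of 23), falls. In siKctd10 they were lost for the falls of Dnmt1 and Suz12 (4 of 24 each) and the rise of Zfp57 (1 of 24). Of all genes, 21.3% were called higher and 14.0% lower in siControl, and 23.0% higher and 13.2% lower in siKctd10. Hells, a chromatin remodeler needed for DNA methylation, fell by 2.48 on the log2 scale in siControl, and Uhrf1, which brings the maintenance methyltransferase to replicated DNA, fell by 1.55. Zfp57, which guards methylated imprints, rose from 11.4 ± 0.797 to 23.7 ± 3.3 TPM. Beside these falls, 3 of 4 proliferation markers fell in siControl, with a summed level of 880 to 1171 TPM at D0 and 378 to 569 TPM at D2, and their part in the falls was not tested.

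Between the siRNAs, 1 of the 17 was called at each day (5.9%, against 2.45% of all genes at D0 and 4.71% at D2). These calls are therefore given gene by gene and not read as a result about the list. Suz12, a subunit of the Polycomb complex PRC2, was higher in siKctd10 at D0, at 38.5, 13 and 22.7 TPM in siControl and 99.9, 66.7 and 79.4 TPM in siKctd10 (1.79 ± 0.36, limma adjusted p = 0.036). Trim28, the corepressor that ZFP57 recruits, was higher at D2, at 164, 193 and 179 TPM in siControl and 265, 281 and 265 TPM in siKctd10 (0.60 ± 0.13, limma adjusted p = 0.035). The Suz12 call was lost in 10 of 24 alternatives, including without any single D0 siKctd10 library and without D0 siControl library 2 or 3 (adjusted p up to 0.16). The Trim28 call was lost in 12 of 24, including without any single D2 siControl library (adjusted p up to 0.12).

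Of 11 genes for insulin and IGF ligands, receptors, their substrates and the RNA-binding proteins of Igf2, 10 passed the filter, with Igf2 and Igf2r counted again. In siControl 4 rose from D0 to D2 and none fell, or 40% called, near the 35.3% of all genes. They were Igf1, Igf2, Igf2r and Irs2. In siKctd10 3 of these rose, all but Igf2r, and none fell (30% against 36.2%). Between the siRNAs 2 of the 10 were called on each day (20%, against 2.45% of all genes at D0 and 4.71% at D2). They were Igf2r and Irs1 at D0, both higher in siKctd10, and at D2 Igf2, lower, and Irs1, higher. Irs1, a docking protein of both receptors, was higher in siKctd10 at D2, at 121, 135 and 123 TPM in siControl and 174, 183 and 162 TPM in siKctd10 (0.45 ± 0.07, limma adjusted p = 0.009). At D0 it was higher by 0.35 ± 0.07 (limma adjusted p = 0.041), a call lost in 16 of 24 alternatives (adjusted p up to 0.15). The D2 call was lost with only the 2 groups compared (adjusted p = 0.067).

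Promoters are shown for 3 of the genes that rose together, as the 250 bases before to the 50 bases after the start (RefSeq, GRCm38.p6), with any E-box, CANNTG, in capitals. No such stretch was available for H19 or Cdkn1c, and Igf2 is not a member of the gene group described here. The E-box is the motif bound by MYOD1 and MYOG and reads the same pattern on both strands.
Mest promoter: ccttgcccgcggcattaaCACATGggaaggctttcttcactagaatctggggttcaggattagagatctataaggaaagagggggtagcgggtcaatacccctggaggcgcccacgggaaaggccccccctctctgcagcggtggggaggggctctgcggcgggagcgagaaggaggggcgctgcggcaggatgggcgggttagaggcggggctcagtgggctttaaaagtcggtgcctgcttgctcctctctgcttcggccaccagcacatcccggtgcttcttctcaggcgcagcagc
Peg3 promoter: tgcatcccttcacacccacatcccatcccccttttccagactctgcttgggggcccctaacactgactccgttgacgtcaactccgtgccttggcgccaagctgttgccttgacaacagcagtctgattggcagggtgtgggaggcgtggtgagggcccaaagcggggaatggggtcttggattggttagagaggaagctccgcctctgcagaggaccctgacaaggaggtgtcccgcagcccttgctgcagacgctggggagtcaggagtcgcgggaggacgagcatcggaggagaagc
Igf2 promoter: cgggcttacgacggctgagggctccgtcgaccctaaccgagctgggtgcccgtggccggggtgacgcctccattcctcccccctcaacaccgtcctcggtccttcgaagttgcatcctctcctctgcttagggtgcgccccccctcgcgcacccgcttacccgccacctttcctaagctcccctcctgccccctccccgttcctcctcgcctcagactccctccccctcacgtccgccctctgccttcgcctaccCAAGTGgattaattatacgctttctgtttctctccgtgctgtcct
The stretches lie at chr6:30737800-30738099 (plus strand), chr7:6730370-6730669 (minus strand) and chr7:142658755-142659054 (minus strand), each at the start of the transcript that led its gene's TPM. Mest has 1 E-box at base -232 from the start, Igf2 has 1 at base 5 and Peg3 has none in this window. Of 32851 promoters of this length, 72.3% hold at least 1. The forms CAGCTG and CAGGTG, which CANNTG includes, were in none of the 3 and in 16.3% and 20.2% of all promoters. A match is a description of letters and no sign of binding.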

How the data were processed

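RNA-seq was deposited as 12 StringTie transcript files, whose TPM, FPKM and coverage the authors estimated on 63759 mm10 transcripts with StringTie 1.3.3b, per the file headers. The submitters' processing notes name HISAT, SAMtools, StringTie 1.1.3 and DESeq2. Transcripts were matched to GENCODE vM21 genes by introns, ends within 10 bases or 50% of exon bases (88.0% matched), and the deposited TPM was summed per gene. Read pairs were estimated from coverage, length and 202 bases a pair, and cover counting error only.

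Genes at 1 TPM or more in at least 3 libraries were fitted in R 4.3.3 with limma 3.58.1 (trend, robust) on log2(TPM + 1), with 4 group means, 8 residual degrees of freedom, a two-sided test and Benjamini-Hochberg adjustment at 0.05. An exact permutation test of 3 against 3 cannot go below p = 0.1. The fit was tested on simulated data. Alternatives changed the pseudocount, filter, scaling, fit, matching and libraries. Genes named are the 10 members, the called genes of 5 lists and the 5 closest patterns, of which 1 gene is not reported here. The members and lists were chosen with earlier results of these data known.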

Additional observations from a re-analysis of the deposited data

Results flagged for a closer look

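The rise of H19 from D0 to D2 differed between the siRNAs by an interaction of -0.94 on the log2 scale (limma adjusted p = 0.0098), and each group's 3 libraries lay apart from the other groups. The rise of Gatm differed by -0.64 (limma adjusted p = 0.048), with group means of 179 and 374 TPM in siControl and 207 and 276 TPM in siKctd10. The Gatm interaction lost its call in 17 of 23 alternatives (adjusted p up to 0.12).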

How the results depend on the processing

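Over all named genes and alternatives, 2414 values kept direction and side of the threshold, 134 lost the call, 3 gained it (all Plagl1, in differentiation) and 10 changed sign, none of the last called. With only the 2 groups compared, called genes numbered 71 in place of 322 at D0 and 264 in place of 619 at D2, and 0 of the 5 genes tested were called on either day. With voom 0 were called at D0. Interaction calls numbered 97, against 62 with a pseudocount of 0.1 and 42 with the replicate block. Deviations of same-numbered libraries correlated at -0.019 to 0.202, with 1 over 0.1, and no label says that the numbers pair libraries. Between the days in siKctd10, same-numbered libraries correlated at 0.089, 0.048 and 0.202 and the others at -0.141 to 0.067, and not every library correlated best with its own number. Leaving out 1 library gave 3934 to 4805 called genes for differentiation in siControl, 4043 to 4662 in siKctd10, 118 to 305 at D0, 313 to 684 at D2 and 49 to 83 for the interaction. Of the 5 genes tested it gave 4 to 4, 4 to 5, 0 to 1, 0 to 1 and 1 to 1 calls in that order.

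Leaving out 1 library also changed the sign of uncalled differences. These were Cdkn1c at D0 (-0.26 to 0.05, the last without D0 siKctd10 library 1), Peg3 at D0 (-0.18 to 0.11, the last without D0 siKctd10 library 3), Mest at D0 (-0.30 to 0.57, the first without D0 siControl library 2) and the Mest interaction (-0.18 to 0.69, below 0 without D0 siControl library 1 or 3). For Plagl1 the range was -0.06 to 0.17 at D2, below 0 without library 1 of either D2 group, and -0.26 to 0.02 for the interaction, above 0 without D2 siKctd10 library 3. Plagl1 at D2 was -0.03 with quantile normalization and -0.02 with voom. The cause was not tested. Quantile normalization moved the median difference of all genes from 0.089 to -0.032 for differentiation in siControl and from 0.117 to -0.02 in siKctd10. Of genes called between the siRNAs, 60.2% were higher in siKctd10 at D0 and 59.6% at D2, against 47.3% and 39.5% with median-ratio scaling. Depth limits Meg3, Rian, Mirg, Dlk1 and Grb10.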

Other observations

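The ratio of H19 to Igf2 TPM was 43.9, 52.2 and 44.6 in the D0 siControl libraries and 64.9, 154 and 78.9 in D0 siKctd10. At D2 it was 41.2, 37.4 and 30.4 in siControl and 71.3, 59.9 and 61.5 in siKctd10. Every siKctd10 library was above every siControl library of either day. The 154 rests on the lowest Igf2 value of the 12 libraries, 0.784 TPM. The smallest p that an exact permutation test of 3 against 3 allows is 0.1, and no test of this ratio was made.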
